A study of Mus musculus with 6 samples.

Results

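The genes described here encode the basement membrane of the airway epithelium, the integrins and hemidesmosome proteins that hold cells on it, and 3 proteins of the provisional matrix that forms after wounding. They are 37 genes named by symbol, and every probe set of the array whose annotation gives exactly 1 gene symbol from that list was taken. This found 36 of the 37 genes, with 89 probe sets, among 18193 genes with 34945 probe sets in all. Fermt1, which encodes the integrin activator kindlin-1, has no probe set under its symbol alone in the annotation used here.

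The arrays hold epithelium peeled from the tracheas of adult male C57Bl/6 mice, wild type as far as the labels say. The control group is normal tracheal epithelium, and the injured group was taken 48 h after injury (48 hpi) from mice that had breathed 500 ppm SO2 in air for 4 h, a gas that kills the luminal cells and leaves basal cells (BCs) to rebuild the layer. Each group has 3 samples, each a pool of 4 tracheas. All 6 were digested with dispase and trypsin and depleted of CD45+ leukocytes, so a pool is a mixture of epithelial cell types and carries what stroma the peeling left.

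The basement membrane is a sheet of laminin and collagen IV networks, tied together by nidogens and heparan sulfate proteoglycans, on which epithelial cells sit. BCs reach it through the integrin α6β4 in hemidesmosomes, which bind laminin-332 (which holds the products of Lama3 and Lamb3) and link it to keratin, and through β1 integrins, which bind laminin, collagen or fibronectin and link them to actin. When epithelium is wounded, cells that migrate over the bared surface typically change their integrins and deposit a provisional matrix with fibronectin and tenascin-C.

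Values are robust multi-chip analysis (RMA) expression on a log2 scale, where a step of 1 is a doubling of signal, and each gene stands for its brightest probe set unless another is named. The 3 injured pools were set against the 3 control pools with limma over all 18193 genes, and a gene is called higher or lower at a Benjamini-Hochberg adjusted p below 0.05. Changes are 48 hpi minus control, with the standard error (SE). The level of 70 olfactory, vomeronasal and trace amine receptor genes, at its 95th percentile 4.96 in control and 4.83 at 48 hpi, is used as background. Pools within a group correlated at 0.990 to 0.996 across probe sets and pools of different groups at 0.954 to 0.973, and 48 hpi pool 3 lay farthest from the control mean for 75.0% of all called genes. Epithelial identity genes were all above background in both groups (9 of 9), with Krt8 at 12.3 ± 0.06 in control and 12.7 ± 0.08 at 48 hpi. With 3 pools in each group the smallest two-sided p of an exact permutation test is 0.1, so calls rest on the limma fit.

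At 48 hpi 6 of the 36 measured genes were called higher, 9 were called lower and 21 were not called. These 15 called genes are 41.7% of the members, against 36.9% of all genes tested, so as a set the members were called about as often as genes in general. By direction, 16.7% of members were higher and 25% lower, against 19.4% and 17.5% of all genes. Among genes above background in at least 1 group the shares were 44.8% (13 of 29) for the members and 51.2% for all genes, with 17.2% of members higher and 27.6% lower against 27.7% and 23.5% of all genes. The pools of the groups did not overlap for 19 members (52.8%), against 50.4% of all genes. The median change was −0.06 over the members and −0.02 over all genes. The higher genes were Tnc, Lama3, Itga3, Itga6, Lamc1 and Lamb1, and the lower genes were Itgb1, Itgb6, Itgb5, Col7a1, Lamb2, Col4a6, Lama5, Agrn and Lama4. Lamb1 and Lama4 had levels within background in both groups. In these bulk pools, fewer cells of a type cannot be told apart from less RNA per cell.

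**Figure D1:**
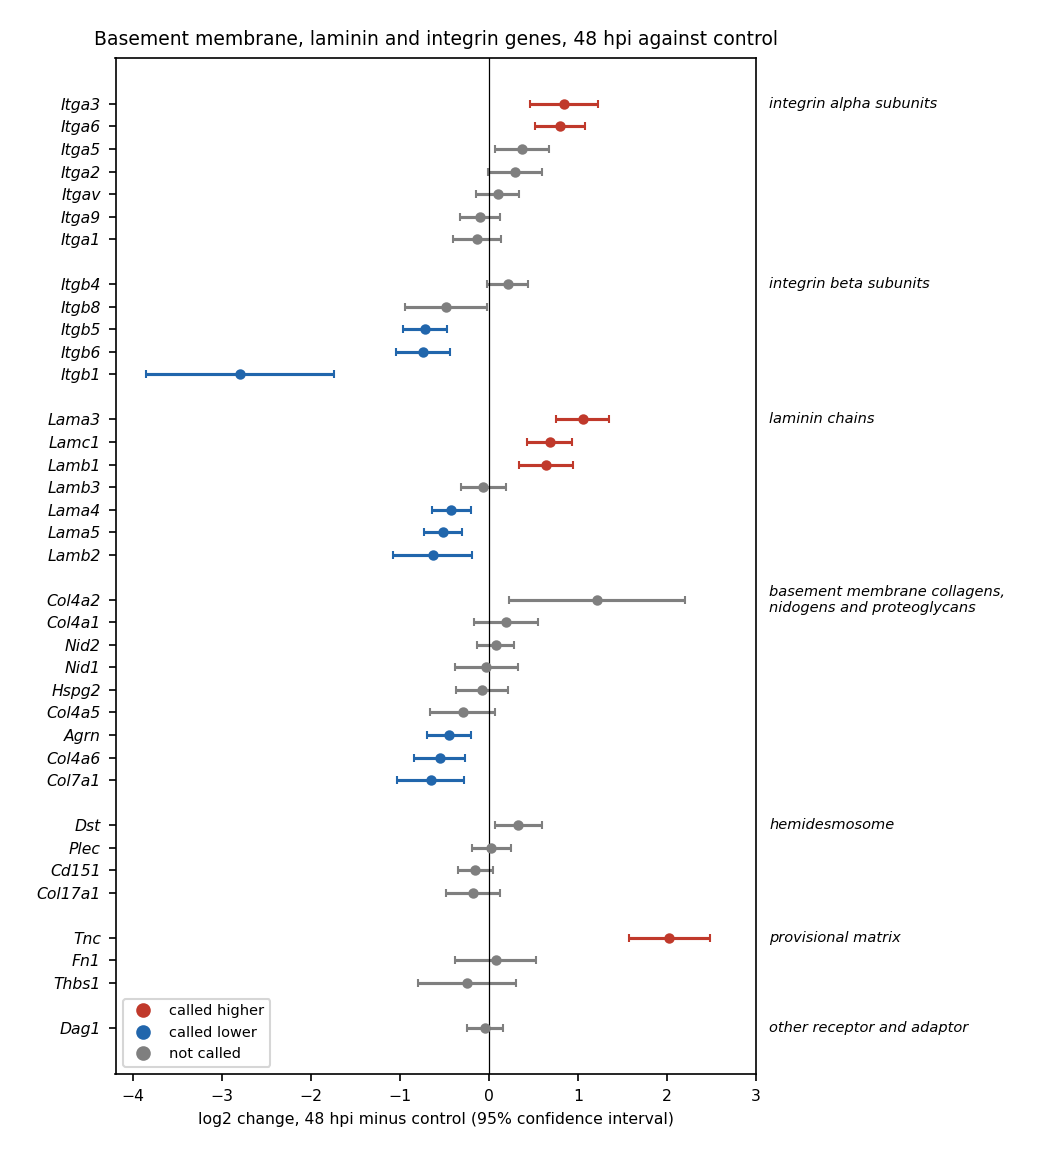
Log2 change at 48 hpi against control for the 36 measured genes, by role, with bars for the 95% confidence interval of the limma fit. Genes called higher are red, those called lower blue and the rest grey. Tnc, at 2.02, and the brightest probe set of Itgb1, at −2.80, have the largest changes.

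The balance of higher and lower calls depends on how the arrays are scaled. Shifting the arrays to a common median gave 9 members higher and 8 lower. Shifting them to equal hybridization controls, which are spiked bacterial transcripts, moved the median of all genes by 0.34 and gave 10 members higher and 1 lower. That shift leaves the order of the members as it was. Both shifts raise every change, by 0.08 with the common median and by 0.34 with equal hybridization controls. They could therefore hardly remove a higher call. Tnc, Lama3, Itga3, Itga6, Lamc1 and Lamb1 were called higher under all 3 scalings. Itgb1 is read here on its brightest probe set, and 3 others rose. Each lower call other than that of Itgb1 was lost with equal hybridization controls, with changes from −0.40 to −0.08. The falls described here are therefore falls relative to the bulk of genes on the array.

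**Figure D2:**
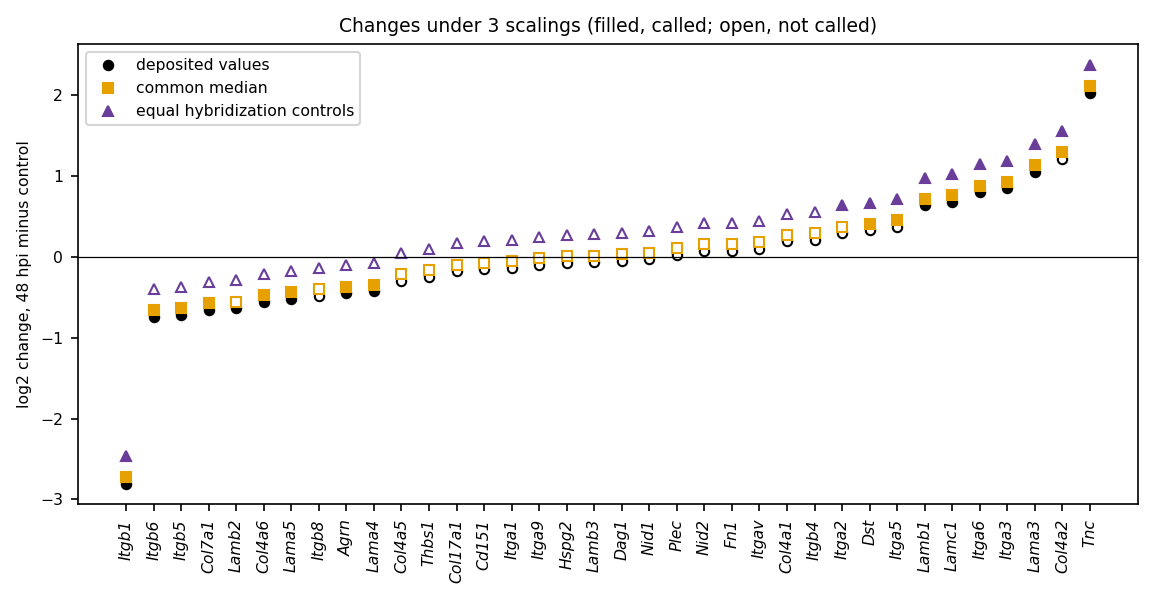
Log2 change of each measured gene (48 hpi minus control, y axis) with the deposited values and with 2 other scalings (a common median, and equal hybridization controls), genes ordered by their change in the deposited values. Filled symbols are called and open symbols are not. Equal hybridization controls lift every gene by 0.34. Itgb1, on its brightest probe set, is the only lower call under that scaling, though 3 of its other probe sets rose.

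Tnc, which encodes tenascin-C, a hexameric glycoprotein of wounds and developing tissue that modulates adhesion to fibronectin, had the largest rise of the members. The control pools read 5.44, 5.28 and 5.09, just above background, and the 48 hpi pools read 6.83, 7.43 and 7.62. Every 48 hpi pool lay more than 1 log2 unit above every control pool. The change was 2.02 (SE 0.20, adjusted p = 0.000207 in limma), or 4.06-fold (95% confidence interval 2.97 to 5.57). Its second probe set read within background in both groups, between 2.38 and 2.65, and was not called. Without any 1 pool the change of Tnc ranged from 1.86 to 2.26, and it was called each time.

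The other genes of the provisional matrix did not move with Tnc. Fn1 encodes fibronectin, the ligand of integrin α5β1 and of several αv integrins. It read 6.28, 6.40 and 6.00 in control and 5.92, 6.26 and 6.72 at 48 hpi, so that the groups overlapped. Its change was 0.08, with a 95% confidence interval from −0.38 to 0.53. Thbs1 encodes thrombospondin-1, a matricellular protein that activates latent TGFβ. The control pools read 6.37, 5.82 and 5.28, a wide spread, and the 48 hpi pools read 5.53, 5.51 and 5.69, all inside that spread (change −0.25, 95% confidence interval −0.80 to 0.30). Within each array, where a shift of the whole array cancels, Tnc minus Fn1 was −0.95 ± 0.15 in controls and 0.99 ± 0.16 after injury (SD, n = 3 pools).

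The promoter of Tnc is shown because this gene had the largest rise of the members. Another annotated gene, 8030451A03Rik, overlaps the window shown. The 250 bases before the outermost annotated start of Tnc (GRCm38.p6, chr4:64047016-64047265, minus strand, sequence from RefSeq) read as follows, 5′ to 3′, with a GGGCGG motif and a TATAAA motif in capitals.
Tnc: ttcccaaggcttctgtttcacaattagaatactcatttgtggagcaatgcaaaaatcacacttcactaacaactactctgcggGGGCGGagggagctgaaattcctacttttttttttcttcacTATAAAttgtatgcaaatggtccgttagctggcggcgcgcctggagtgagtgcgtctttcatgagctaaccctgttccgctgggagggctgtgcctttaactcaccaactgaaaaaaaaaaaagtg
Of the 36 measured members, 27 have at least 1 annotated start in the table used, and the 250 bases before each start were searched. On either strand TATAAA stands before a start of 2 of them, Tnc and Col17a1, against 14.3% of 27025 genes searched in the same way. GGGCGG stands in 17 of the 27, against 35.4% of all genes, including all 3 called higher that were searched (Tnc, Itga3 and Lamb1), 6 of 8 called lower and 8 of 16 not called. TGANTCA, the letters bound by AP-1, stands in none of the 27, against 7.82% of all genes. These are matches of letters only.

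Laminin genes changed in opposite directions. Of 7 measured chains 3 were higher and 3 were lower, and 1 was not called, against 19.4% of all genes higher and 17.5% lower. Lamb1, among the higher, and Lama4, among the lower, were within background. The lower call of Lamb2 was lost when any 1 control pool was left out. Lama3, the α chain of laminin-332, read 7.25, 7.43 and 7.31 in control and 8.20, 8.30 and 8.65 at 48 hpi. The groups lay well apart, with a difference of 1.05 (SE 0.13, adjusted p = 0.000559 in limma), or 2.07-fold (95% confidence interval 1.69 to 2.54). Lama5, the α chain of laminin-511 and laminin-521, which are the main laminins under mature epithelia, read 8.16, 8.37 and 8.15 in control and 7.74, 7.65 and 7.74 at 48 hpi. Its change was −0.52 (SE 0.09, adjusted p = 0.00334 in limma), and its other 2 probe sets fell by 0.59 and 0.46. Within each array the difference of Lama3 minus Lama5 was −0.91, −0.94 and −0.84 in control and 0.47, 0.65 and 0.91 at 48 hpi. This difference rose by 1.57, and a shift of a whole array cancels in it. A rescaling that differs with signal level would not cancel. Lama3 and Lama5 had already been called in opposite directions, so this is a description, without a test. A dim second probe set of Lama3, within background, was not called (−0.18).

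Lamb3, the β chain that pairs with Lama3 in laminin-332, was not called. It averaged 8.97 ± 0.17 and 8.90 ± 0.10 (SD, n = 3 pools), and the pools of the groups overlapped, with a change of −0.07 (95% confidence interval −0.32 to 0.18). Lamc1, the γ chain of most other laminins, read 6.65, 6.70 and 6.59 in control and 7.17, 7.27 and 7.54 at 48 hpi. Every 48 hpi pool lay above every control pool (change 0.68, SE 0.11, adjusted p = 0.00207 in limma), and a dimmer probe set rose by 0.49.

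The chains that pair with Lamc1 did not all follow it. Lamb2, the β chain of laminin-521, read 7.39, 7.27 and 7.15 in control and 6.87, 6.89 and 6.15 at 48 hpi. The lowest value was that of 48 hpi pool 3, and the change was −0.63 (SE 0.19, adjusted p = 0.0337 in limma). Without that pool it was −0.39, and the call was lost when any 1 control pool was left out (adjusted p = 0.0634 to 0.102 in limma). Lamb1, the β chain of laminin-411 and laminin-511, rose by 0.64 (SE 0.13) between levels within background, 3.98 ± 0.14 and 4.62 ± 0.22 (SD, n = 3 pools). Of its other 3 probe sets, 1 was called (0.34), and without probe sets that can bind several transcripts the gene was not called (0.12). Lama4, an α chain of vessel and mesenchymal basement membranes, fell by 0.42 (SE 0.10), also within background, and its dimmer probe set was not called (0.03).

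**Figure D3:**
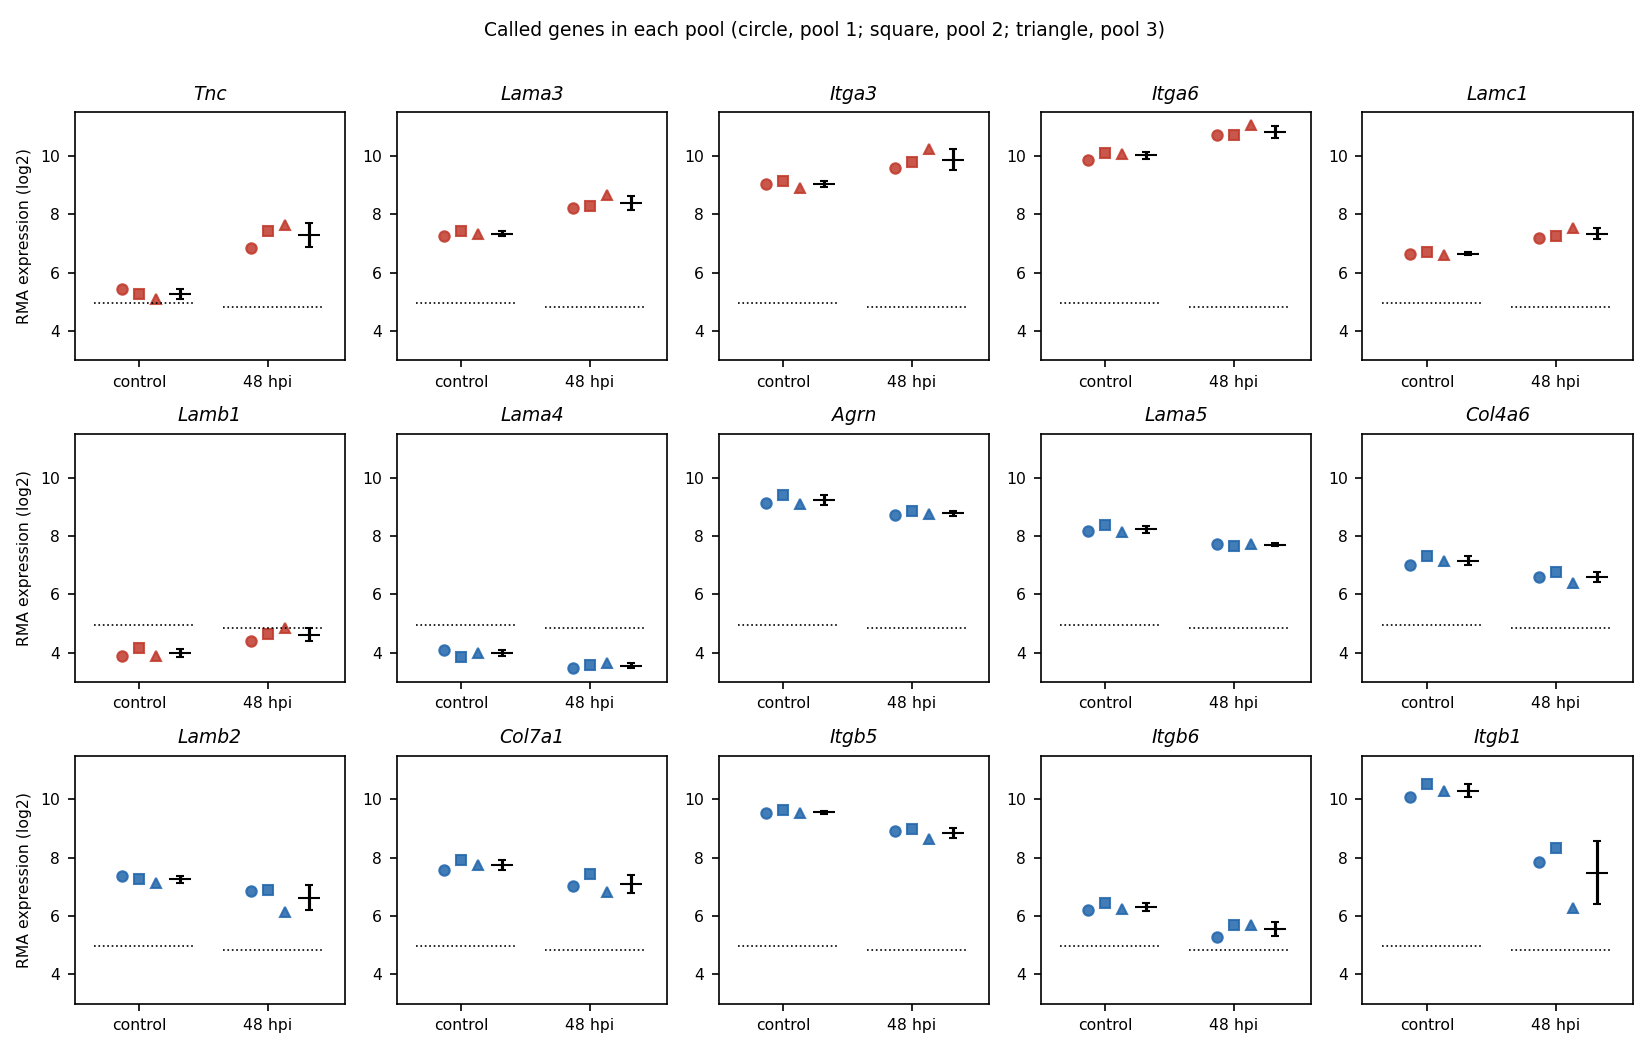
RMA expression (log2) in each pool for the 15 called genes, with mean and SD in black beside the points and background as dotted lines. Red genes are higher and blue genes lower at 48 hpi. No called gene has overlapping groups, Lamb1 and Lama4 lie within background, and the brightest probe set of Itgb1 spreads most at 48 hpi, from 6.27 to 8.34.

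Against 19.4% of all genes higher and 17.5% lower, of 7 measured integrin α subunits Itga3 and Itga6 were higher at 48 hpi and none was lower. Both encode laminin-binding subunits, as does Itga7, outside the list, which was lower (change −0.48). Itga6, whose product joins β4 in hemidesmosomes, read 9.88, 10.12 and 10.07 in control and 10.70, 10.71 and 11.05 at 48 hpi. The groups did not overlap, and the change was 0.80 (SE 0.12, adjusted p = 0.00152 in limma), or 1.74-fold (95% confidence interval 1.43 to 2.11). Its second probe set rose by 0.65. Itga3, whose product joins β1 and binds laminin-332 and laminin-511, read 9.05, 9.13 and 8.91 in control and 9.57, 9.80 and 10.25 at 48 hpi. Its change was 0.85 (SE 0.17, adjusted p = 0.00501 in limma), and both other probe sets rose, by 0.71 and 0.73.

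The α subunits that bind fibronectin, collagen or other ligands were not called. Itga5, the α subunit of the fibronectin receptor, averaged 5.01 ± 0.24 in controls and 5.38 ± 0.12 after injury (SD, n = 3 pools). The change was 0.37 (SE 0.13), short of a call (adjusted p = 0.0582 in limma). It was called higher in 6 of 21 alternatives, among them both other scalings, which raise every change. A probe set within background fell by 0.58. Without probe sets that can bind several transcripts the change of Itga5 was 0.008, and with the mean of its probe sets it was −0.05. Neither alternative called the gene. Itgav, which pairs with β1, β5, β6 and β8, had 10.0 ± 0.08 and 10.1 ± 0.16 on its brightest probe set. Itga9 had 5.36 ± 0.12 and 5.26 ± 0.09. The collagen receptor genes Itga1 and Itga2 were within background, with changes of −0.13 and 0.29.

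Of 5 measured β subunits 3 were lower and none was higher on the brightest probe set, against 17.5% of all genes lower and 19.4% higher. Itgb1 is among these 3, though other probe sets of that gene rose. Itgb5, a partner of αv that binds vitronectin, read 9.55, 9.62 and 9.53 in control and 8.92, 8.97 and 8.65 at 48 hpi. All 4 of its probe sets fell, by 0.53 to 0.74, and the brightest changed by −0.72 (SE 0.11, adjusted p = 0.00136 in limma). Itgb6, an epithelial partner of αv that activates latent TGFβ, read 6.21, 6.45 and 6.24 in control and 5.29, 5.68 and 5.69 at 48 hpi, a difference of −0.74 (SE 0.13, adjusted p = 0.00308 in limma). A dim second probe set of Itgb6, within background, was not called (−0.008). Itgb8, which also activates latent TGFβ with αv, had means within background (4.84 ± 0.23 and 4.36 ± 0.40, SD, n = 3 pools) and was not called.

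Itgb4, the partner of α6 in hemidesmosomes, read 9.75, 9.76 and 9.61 in control and 9.87, 9.81 and 10.07 at 48 hpi. The groups did not overlap by a narrow margin, and the change of 0.21 (95% confidence interval −0.02 to 0.44) was not called. Within arrays, Itga6 minus Itgb4 was 0.32 ± 0.17 in controls and 0.91 ± 0.07 after injury (SD, n = 3 pools), and the ranges did not overlap. This is a description, without a test.

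Itgb1, the common partner of α1, α2, α3, α5 and α9, has 6 probe sets that were called in both directions. The brightest read 10.08, 10.52 and 10.29 in control and 7.87, 8.34 and 6.27 at 48 hpi, a difference of −2.80 (SE 0.46, adjusted p = 0.00208 in limma). At 48 hpi its pools spread over more than 2 log2 units, and without pool 3 the change was −2.19. The next probe sets rose instead. The first of them averaged 8.55 ± 0.07 in controls and 8.87 ± 0.12 after injury, without overlap (change 0.32). Another read 7.43, 7.54 and 7.42 against 8.53, 8.27 and 8.61 (change 1.00, SE 0.11, adjusted p = 0.000329 in the limma fit over every probe set). The dimmest of the rising probe sets changed by 0.32 as well, and the last 2 were within background. The 4 probe sets above background are thus 3 higher and 1 lower, and the mean of all 6 changed by −0.18 and was not called. The direction of Itgb1 is therefore not settled by these arrays, and which part of the transcript each probe set reads is not given in the sources used here.

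Probe sets also disagreed in Itgav and Dst. When every probe set was tested, 16 of the 89 (18.0%) were higher and 18 (20.2%) lower, 38.2% in all, against 17.7%, 15.2% and 32.9% of 34945 probe sets. Of the 27 members with more than 1 probe set, 2 had probe sets called in both directions, Itgb1 and Itgav, against 3.4% of 9010 genes with more than 1 probe set. For Itgav, the brightest was not called (0.10), a dim one rose by 0.95 from 4.17 ± 0.24 to 5.12 ± 0.26, and another fell by 0.32 within background. Of the 13 called members with more than 1 probe set, 5 had all probe sets called the same way.

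**Figure D4:**
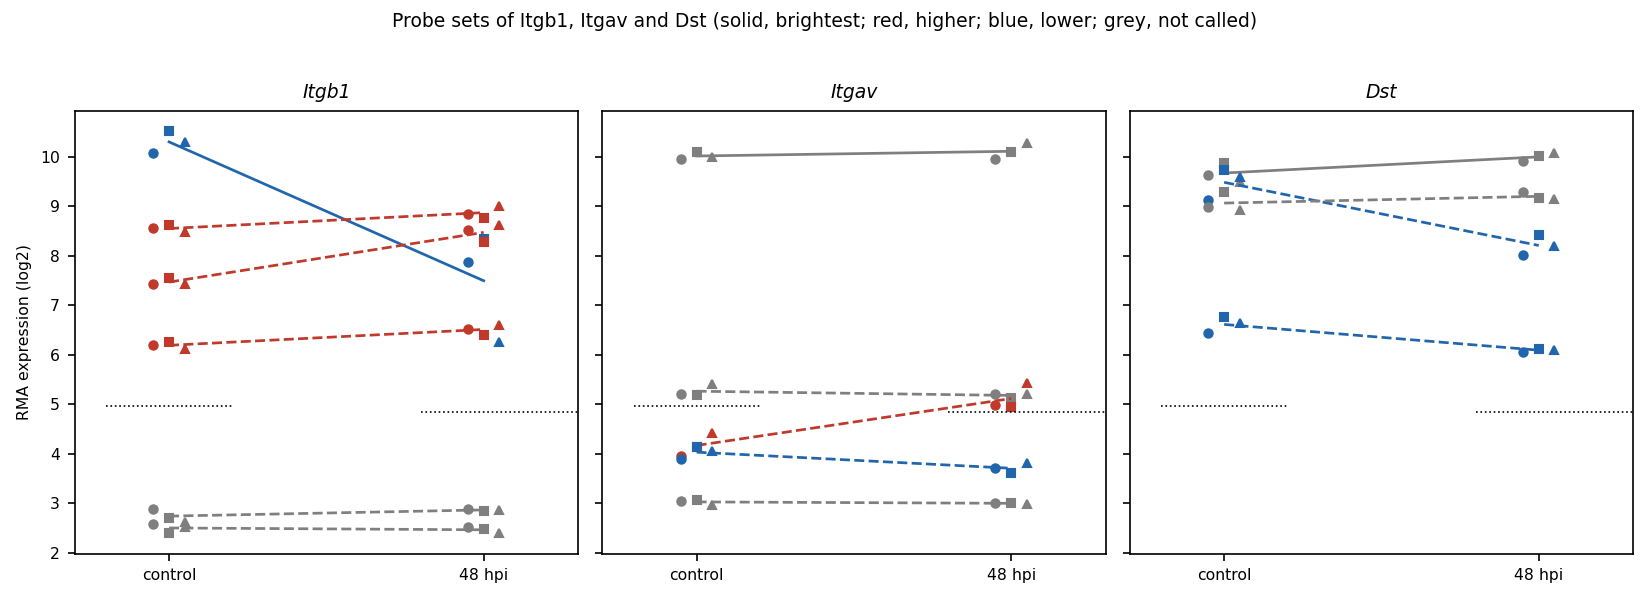
RMA expression (log2) of each probe set of Itgb1, Itgav and Dst in control and 48 hpi epithelium. Points are pools, lines join group means, the solid line is the brightest probe set and dotted lines mark background. The brightest Itgb1 probe set falls from 10.3 to 7.49 while 3 others rise, and 2 of the 4 Dst probe sets fall.

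Hemidesmosome genes had high levels in both groups, and none of the 4 was called on its brightest probe set. Col17a1, the transmembrane collagen BP180, read 9.53, 9.82 and 9.36 in control and 9.36, 9.52 and 9.29 at 48 hpi, overlapping ranges. Plec, which links integrin β4 to keratin, had 10.7 ± 0.10 in both groups, with a change of 0.02 (95% confidence interval −0.19 to 0.24). Cd151, a tetraspanin that binds laminin-binding integrins, read 10.81, 10.93 and 10.88 in control and 10.67, 10.69 and 10.81 at 48 hpi, a change of −0.15 (95% confidence interval −0.35 to 0.05). None of its 6 probe sets was called, and the changes ran from −0.19 to −0.09.

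Dst, which encodes the plakin BP230 in epithelia and other isoforms in nerve and muscle, differed between its 4 probe sets. The brightest read 9.63, 9.88 and 9.49 in control and 9.91, 10.01 and 10.06 at 48 hpi (change 0.33, adjusted p = 0.0567 in limma). A probe set of similar brightness fell from 9.48 ± 0.32 to 8.20 ± 0.20 (SD, n = 3 pools), with every injured pool below every control pool, a difference of −1.27 (SE 0.17, adjusted p = 0.000845 in the limma fit over every probe set). The dimmest fell by 0.52 and the remaining one was not called (0.14). The mean of the 4 probe sets was called lower, with a change of −0.33. Dag1, the gene of dystroglycan, a laminin receptor outside the integrin family, had 4 probe sets with changes from −0.19 to −0.05, and none was called.

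Among collagens of the basement membrane, the genes of the anchoring fibril and of the α6(IV) chain were lower. Col7a1, which encodes the anchoring fibril collagen that ties the basement membrane to the stroma, read 7.59, 7.92 and 7.76 in control and 7.03, 7.45 and 6.83 at 48 hpi. The change was −0.66 (SE 0.16, adjusted p = 0.0145 in limma), lost without control pool 2 (−0.57, adjusted p = 0.0554 in limma). Col4a6 read 6.99, 7.30 and 7.15 in control and 6.61, 6.76 and 6.40 at 48 hpi, with a difference of −0.56 (SE 0.12, adjusted p = 0.00857 in limma) and a dimmer probe set that was not called (−0.36). Col4a5, which faces Col4a6 on the X chromosome with 1274 bases between their annotated spans (GRCm38.p6), had 8.57 ± 0.10 and 8.27 ± 0.33 (SD, n = 3 pools) and was not called.

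Col4a1 and Col4a2 encode the chains of the most widespread collagen IV and lie head to head on chromosome 8, with annotated spans that share 85 bases. Their levels at 48 hpi differed between pools. Col4a2 read 3.88, 4.43 and 4.25 in control, within background, and 4.27, 6.17 and 5.76 at 48 hpi. Pool 1 stayed among the controls while pools 2 and 3 lay above them, and the change of 1.21 was not called (SE 0.43, adjusted p = 0.057 in limma). Among the 48 hpi pools the dimmer probe set of Col4a1 was also lowest in pool 1, though there above every control pool, with 4.26, 4.62 and 4.47 in control and 4.71, 6.50 and 6.37 at 48 hpi (change 1.41, adjusted p = 0.0312 in the limma fit over every probe set). The brightest probe set of Col4a1 had 5.08 ± 0.16 and 5.27 ± 0.30 and was not called. Without 48 hpi pool 1 the change of Col4a2 was 1.78 and it was called (adjusted p = 0.000815 in limma).

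Fibrillar collagen genes, which mark fibroblasts, were highest in 48 hpi pool 2. Col3a1 read 4.56, 6.66 and 4.88 in 48 hpi pools 1, 2 and 3, Col1a1 read 4.70, 5.67 and 5.33, and Col1a2 read 3.99, 5.28 and 4.04. In control these genes did not exceed 4.91. None of the 3 was called. Of 11 measured fibroblast markers 1 was higher (Vim) and 1 lower (Dcn), with 1 above background in control and 4 at 48 hpi. The summed linear signal of this list ran from 1237 to 1725 in control and from 388 to 846 at 48 hpi, and it follows Dcn, its brightest gene. None of 9 endothelial markers was called, with 3 above background in each group and summed signals of 251 to 289 in control and 245 to 259 at 48 hpi. The part of stromal RNA in the values of Col4a1 and Col4a2 was not tested.

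**Figure D5:**
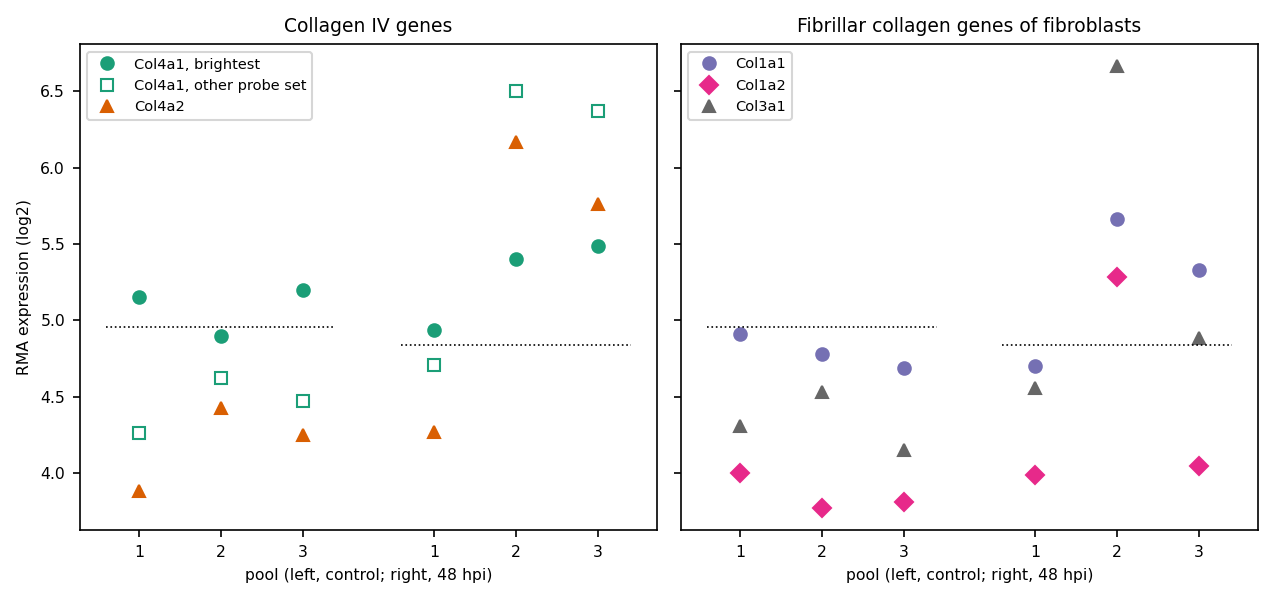
RMA expression (log2) of Col4a1 and Col4a2 (left) and of the fibroblast collagen genes Col1a1, Col1a2 and Col3a1 (right) in each pool, with background as dotted lines. In 48 hpi pool 1 all of them lie close to the control values. In pool 2 Col4a2 is at 6.17 and Col3a1 at 6.66, and in pool 3 Col4a2 is at 5.76 and Col3a1 at 4.88.

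Of 4 linker genes of the basement membrane 1 was called. Agrn, the heparan sulfate proteoglycan agrin, read 9.14, 9.42 and 9.11 in control and 8.71, 8.86 and 8.75 at 48 hpi, a difference of −0.45 (SE 0.11, adjusted p = 0.0123 in limma). Its other probe set, within background, was not called (−0.08). Hspg2, which encodes perlecan, was not called, with 7.85 ± 0.22 and 7.77 ± 0.12 (SD, n = 3 pools) and a 95% confidence interval of the change from −0.37 to 0.22. The nidogen genes Nid1 and Nid2 were within background in both groups, as were Itga1, Itga2, Itgb8, Lamb1 and Lama4, so for these genes the arrays say little.

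Called members were also read against markers of the cells in the pools. Of 10 BC markers Krt5 (change 0.69) and Krt14 (3.18) were higher and Ngfr and Pdpn were lower, while Trp63 was not called. All 10 were above background in both groups, and their summed linear signal was 15992 to 16816 in control and 19320 to 21543 at 48 hpi. The median change over the 10 was −0.06, so the higher sum follows mostly Krt5 and Krt14 and not the list as a whole. Of 17 ciliated cell markers 14 were lower and of 12 secretory cell markers 10 were lower, with none higher in either list. Itga6 and Lama3 therefore rose, and Itgb5 and Lama5 fell, in pools where most ciliated and secretory markers fell and Krt5 and Krt14 rose, while Krt15 was not called and the luminal keratin gene Krt8 was higher, and the part of these markers in the members' changes was not tested. Markers of other cells shifted through single genes. Lyz2, which macrophages and some epithelial cells express, fell from 13.8 ± 0.15 to 10.6 ± 1.91 (SD, n = 3 pools), and of 14 leukocyte markers 2 were higher and 2 lower. Chad, a cartilage matrix gene, fell by 2.68 on the log2 scale and was the only 1 of 8 cartilage markers called, while the defining gene Col2a1 stayed within background. Ppbp, a chemokine gene of platelets, was within background in control and read 11.9 ± 0.25 (SD, n = 3 pools) at 48 hpi, and was the only 1 of 7 platelet markers called. Of 8 smooth muscle markers Myh11 alone was called, lower and within background, and none of 3 Schwann cell markers was called. 48 hpi pool 3 lay farthest from the control mean for 11 of the 15 called members, and without it 6 members were called higher and 9 lower.

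Other genes of adhesion and matrix also moved in both directions. Of 13 other integrin subunits Itgb7 and Itgb2 were higher and Itga7 was lower. Itgb7, a leukocyte integrin subunit, rose from 6.00 ± 0.09 to 6.74 ± 0.20 (SD, n = 3 pools) and was the only one of these 3 above background in both groups. None of 3 other laminin chains (Lama1, Lama2 and Lamc3) was above background or called. Of 21 further basement membrane components 5 were higher and 5 lower. Col18a1, which encodes the precursor of endostatin, rose by 1.83 (SE 0.18), Fbln1, which encodes fibulin-1, rose by 1.73 (SE 0.14), and Ecm1, which encodes extracellular matrix protein-1, rose by 1.37 (SE 0.18) on the log2 scale. Ntn4, a netrin that disrupts laminin networks, fell by 1.36 (SE 0.15). Efemp1, which encodes fibulin-3, fell by 1.20 (SE 0.18), and Sparc, a collagen-binding matricellular gene, fell by 0.79 (SE 0.14).

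Of 26 focal adhesion and integrin adaptor genes 6 were higher and 5 lower. The actin crosslinker genes Flna and Actn1 rose by 0.96 (SE 0.13) and 0.94 (SE 0.16), whereas Tns1, a tensin that binds integrin β tails, fell by 1.79 (SE 0.16) and Parva, a partner of integrin-linked kinase, fell by 1.01 (SE 0.17). Of 15 enzymes and chaperones of collagen and matrix assembly 1 was higher (Crtap, change 0.81) and 5 were lower. P4ha2, a subunit of collagen prolyl hydroxylase, fell by 2.00 (SE 0.21), Serpinh1, the collagen chaperone HSP47, by 1.25 (SE 0.17) and Lox, a lysyl oxidase that crosslinks collagen, by 1.02 (SE 0.10). Of 17 other matrix receptors and tetraspanins 3 were higher (Rpsa, Cd81 and Sgcb) and 7 lower. Cd82, a tetraspanin, fell by 1.13 (SE 0.17) and Cd47, a thrombospondin receptor, by 1.08 (SE 0.16). Of 17 other matricellular genes Tgfbi, Ccdc80 and Thbs3 were higher and Tnn was lower. Tgfbi, which encodes an integrin-binding matrix protein, rose from 7.39 ± 0.21 to 8.42 ± 0.25 (SD, n = 3 pools). These lists are read beside the 19.4% of all genes called higher and the 17.5% called lower.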

How the data were processed

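Epithelium from 3 control and 3 48 hpi pools was measured on Affymetrix whole-genome mouse expression arrays. According to the methods and the processing notes, the authors amplified the RNA with MessageAmp Premier and normalized by RMA in Partek 6.5, and the notes also name Affymetrix Expression Console 1.1. The deposited values are log2 RMA expression, from 2.01 to 14.6, without detection calls. The methods state RMA for each data set, without saying which arrays formed one. Their two-way ANOVA was not repeated here. Mesenchymal arrays were not analysed here.

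Gene names came from the platform annotation, and 34945 probe sets with 1 symbol were used. A gene was represented by its brightest probe set, averaged over the 6 arrays, which left 18193 genes. These were fitted with lmFit and eBayes (limma 3.58.1, R 4.3.3) without a block, and p was adjusted over all genes. A fit over every probe set gave the values of other probe sets. Promoters came from RefSeq (GRCm38.p6). Plots were made with matplotlib 3.10.9.

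The members and gene lists were chosen with earlier results of these data known, so counts over them are descriptions. Values of every pool are given for called members that changed by at least 1, for the 2 members of each role with the smallest p, and for further members chosen after their values were seen. The test was tried on simulated data of 18193 genes and called 92.5% of genes changed by 1 on the log2 scale and 23.9% of those changed by 0.5. The simulation changed only a small share of the genes, whereas 36.9% of all genes were called in the real data. Its percentages therefore do not give the sensitivity of the real comparison. Whether pools came from separate exposures is stated only as repeated experiments. The number of arrays limits the precision.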

Additional observations from a re-analysis of the deposited data

How the results depend on the processing

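Alternatives were another prior, an unpaired t-test, other scalings, filters, probe set choices and thresholds, array weights, the replicate block and leaving out each pool. The 6 members called higher and 9 called lower became 10 and 1 with equal hybridization controls, and 2 and 1 with a change of at least 1 required as well. The t-test after adjustment gave 4 higher and 5 lower. Equal hybridization controls shift all genes by 0.34 and also set control pool 1 apart from the other controls (mean control signal 11.7 against 11.1 and 11.2). Dst, not called, was called lower with the mean of its probe sets (−0.33), and Itgb1 (−0.18), Lama4 (−0.20) and Agrn (−0.26) were not called with it. The t-test did not call Itga3, Lamb1, Lamb2, Col4a6, Col7a1 and Agrn. Leaving out 1 pool gave 6 to 7 members higher and 7 to 9 lower. The other alternatives gave 5 to 9 higher and 6 to 10 lower. With the replicate number as a block there were 7 higher and 10 lower, since Col4a2 and Itgb8 were then called. Same-numbered pools deviated together only weakly (r from 0.03 to 0.16 across genes), though 5 of 6 pools correlated best with their own number. Correlations this small cannot decide whether the numbers pair the samples. For members not called in either fit no direction is stated. Genes within background limit what can be said of 7 members.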
